A study of Mus musculus with 12 samples.

Results

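The genes described here encode lysosomal enzymes and membrane proteins, subunits of the vacuolar proton pump (V-ATPase), sorting proteins and the transcription factors that control them, and were measured in mouse embryonic fibroblasts (MEFs) with and without the coactivators CBP and p300. The list held 45 genes, of which 42 were found among the 17097 genes measured, and Cd63, Neu1 and Atp6v1c1 were not analysed here. Where a gene had several probe sets, the one of highest mean over the 12 arrays was used. That mean counts all groups, so it can favour a probe set that is high in MEFs lacking the coactivators. The list itself was drawn up with earlier results of these arrays known, so its counts are not independent evidence of a direction. The 4 groups of 3 arrays were wild-type MEFs in ethanol, wild-type MEFs with 2,2'-dipyridyl (DP), and double-knockout (dKO) MEFs, homozygous for conditional alleles of both coactivator genes, in ethanol or with DP. All MEFs were of strain C57Bl/6 x 129Sv (F1), were taken at e14.5 and were used at passage 4. Wild-type MEFs, like the conditional ones, were infected with adenovirus carrying Cre at an MOI of 100 (virus per cell). Infection lasted 16 h in 3% oxygen, and culture went on for 48 h in 3% oxygen and 24 h in normoxia. DP at 100 µM, or ethanol, acted for 3 h, and 100 ng of total RNA was labelled. Each line gave an array per treatment, the lines being numbered 3, 4 and 5 for wild type and 1, 5 and 6 for dKO. Whether the numbered lines came from separate embryos is not stated, so the p-values measure the spread between these lines.

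Lysosomes degrade proteins, glycans and lipids delivered by endocytosis and autophagy. Their hydrolases need an acid lumen, which the V-ATPase makes by coupling ATP hydrolysis in its peripheral V1 sector to proton transport through its membrane V0 sector. The transcription factors TFEB, TFE3 and MITF bind a short palindrome in the promoters of many of these genes, while CBP and p300 are acetyltransferases recruited by many transcription factors, and DP is an iron chelator used to mimic hypoxia.

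The median log2 level of an array was 3.87 to 3.98, and 23 nonspecific control probe sets had their 95th percentile at 3.08 to 3.92. The Crebbp probe set, which reads the gene for CBP, gave 8.27 ± 0.17 (SD, n = 3) in wild type and 7.42 ± 0.35 (SD, n = 3) in dKO in ethanol, a fall of 0.85 ± 0.16 (SE, limma adjusted p = 0.000992). Whether this probe set lies within the deleted part is unknown here, and the gene for p300 was not analysed here. Wild-type and dKO arrays also differed in sex-linked RNA, with Xist at 10.28 to 10.75 in wild type and 3.94 to 5.32 in dKO, and the Y-linked Eif2s3y at 2.49 to 3.29 and 7.08 to 8.93. The beta-actin 3' minus 5' log2 difference, a measure of RNA integrity and labelling, was 0.23 to 0.38 over the wild-type groups and 0.40 to 0.60 over the dKO groups. For GAPDH it was -0.03 to 0.15 against 0.19 to 0.21 in ethanol, and 0.04 to 0.17 against 0.10 to 0.19 with DP, where the genotypes overlapped. Genotype cannot be told apart from sex or from the beta-actin measure in any comparison of dKO with wild type. Averaged over all 12 arrays, 12 of 12 fibroblast markers were above 4 log2. In dKO alone, however, Col1a2 averaged 3.46 in ethanol and 3.42 with DP, within the range of the control probe sets. All 12 markers were lower in dKO in both treatments, with array means of 10.15 to 10.29 in wild type and 8.14 to 8.72 in dKO. One ethanol array of each genotype (line 5 of wild type, line 1 of dKO) had the lowest correlation with its group, 0.990 and 0.989 against 0.992 to 0.997 for the other arrays.

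In ethanol, most genes of the lysosome and of the proton pump were higher in dKO than in wild-type MEFs. Of the 42 genes, 29 were higher, 2 were lower (Ctsh and Ctss, both cysteine cathepsins) and 11 were not called at a limma adjusted p under 0.05 over all genes. Over all genes tested, 19.5% were called higher and 14.1% lower. The median difference of the 42 genes was 0.60 log2, beside -0.01 for all genes. Of the 42 genes, 9 were called and at least 2-fold higher, beside 696 of all 17097 genes. The secreted chaperone Clu, the sorting receptor Sort1 and the pump subunit Atp6v0e2 stood far above the rest, and the median of the other 39 genes was 0.54. With DP the counts were again 29 higher, 2 lower and 11 not called, where 18.5% of all genes were higher and 16.9% lower. The median there was 0.53, beside -0.01 for all genes. The 2 genotype comparisons take their means from different arrays of the same 6 lines. Their spread was estimated once over all 12 arrays, so their calls are not independent. Of the 42 genes 30 were called in both, 28 of them higher and 2 lower. Over all genes 27.6% were called in both, 15.6% higher and 11.9% lower. Npc1 was called in ethanol and not with DP, and Npc2 with DP and not in ethanol, while the difference between treatments was not called for either. After cyclic loess scaling, 28 genes were higher and 2 lower in ethanol, and 29 and 2 with DP, while the share of higher calls among all called genes moved from 58.1% to 45.9% in ethanol and from 52.4% to 42.1% with DP.

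**Figure D1:**
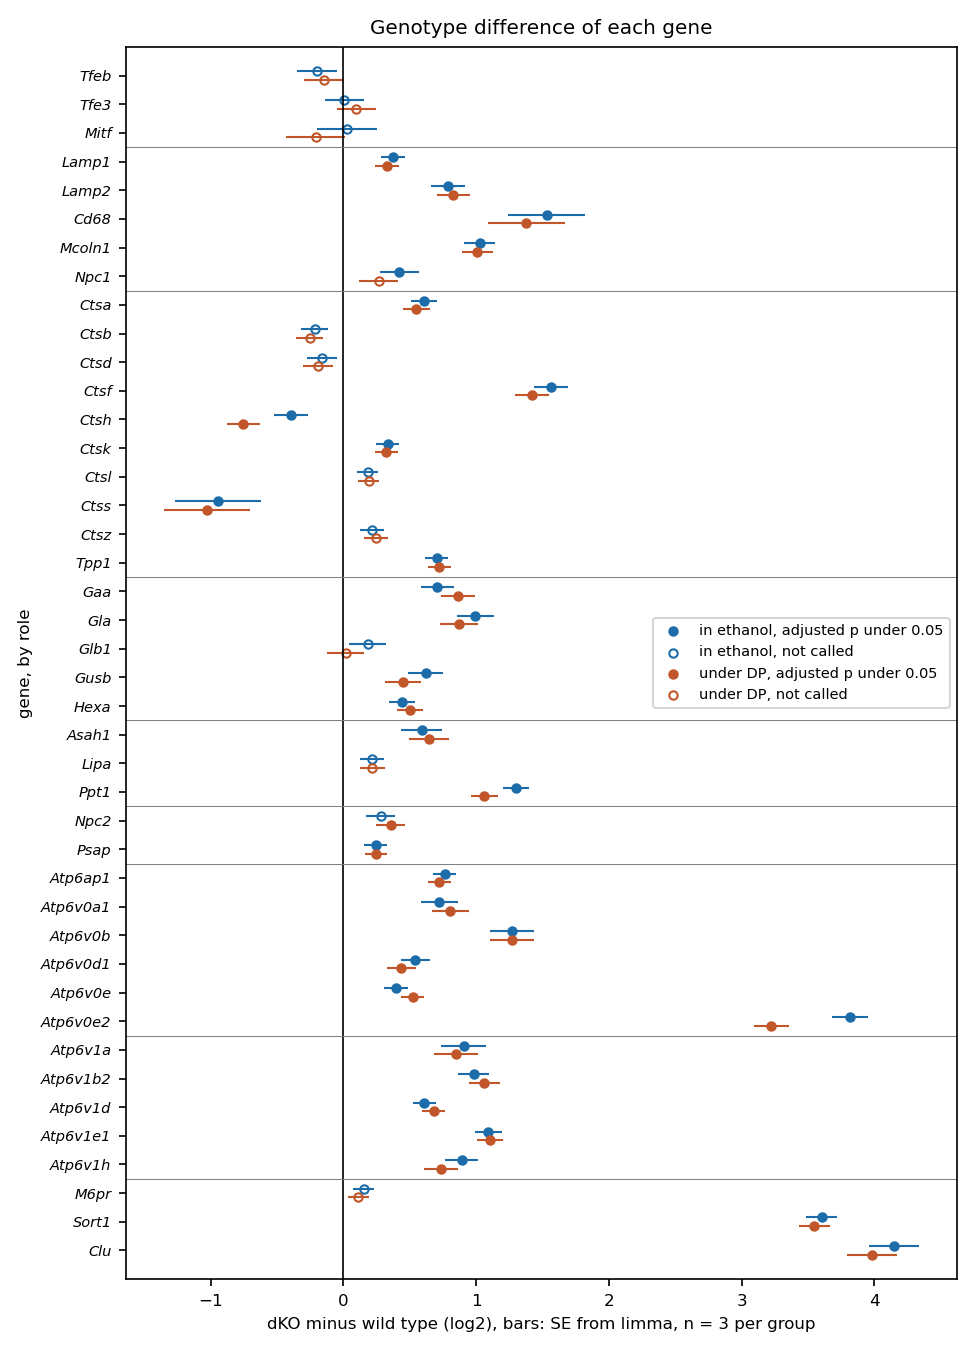
Difference between dKO and wild type (log2, x axis) of each of the 42 genes, grouped by role on the y axis, in ethanol (blue) and with DP (orange); points are group differences of 3 against 3 arrays, bars are limma standard errors and open points were not called. Clu, Sort1 and Atp6v0e2 lie above 3 in both treatments, all V-ATPase genes lie to the right of 0, and Ctsh and Ctss are the filled points to its left.

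Values below are log2 levels on each array, in the order of lines 3, 4 and 5 for wild type and lines 1, 5 and 6 for dKO. A level on this array cannot be compared between genes, since each probe set binds with its own efficiency. Differences are dKO minus wild type in log2 with the limma standard error, and the adjusted p is limma's over all genes.

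The mRNA of the 3 transcription factors was not called as different between genotypes. Tfeb was dim, at 4.40, 4.64 and 4.77 in wild type and 4.45, 4.49 and 4.25 in dKO in ethanol. On the DP arrays it read 4.09, 4.18 and 4.63 in wild type and 4.08, 4.33 and 4.05 in dKO. The groups overlapped in both treatments, with differences of -0.20 ± 0.15 (adjusted p = 0.349) and -0.15 ± 0.15 (adjusted p = 0.502). Tfe3, an X-linked relative, read 8.46, 8.63 and 8.95 in wild type and 8.94, 8.44 and 8.68 in dKO in ethanol. With DP its levels were 8.45, 8.44 and 8.52 against 8.43, 8.54 and 8.73. The Tfe3 differences were 0.01 ± 0.15 (adjusted p = 0.984) and 0.10 ± 0.15 (adjusted p = 0.661). Mitf read 6.42, 6.67 and 5.71 against 5.81, 6.54 and 6.52 in ethanol, and 6.79, 6.71 and 6.78 against 6.57, 6.54 and 6.55 with DP. Its low ethanol values were on the same arrays that correlated least with their groups. The Mitf groups overlapped in ethanol and not with DP, with differences of 0.03 ± 0.22 (adjusted p = 0.942) and -0.21 ± 0.22 (adjusted p = 0.522), and it was the gene of the 42 whose sign differed between treatments. Fitted on the DP arrays alone, Mitf was called lower in dKO (adjusted p = 0.0443), while the mean of its probe sets gave 0.02.

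All 5 membrane proteins were higher in dKO in ethanol, and 4 of 5 with DP, beside 19.5% and 18.5% of all genes. Lamp1, a heavily glycosylated protein lining the lysosomal membrane, read 11.60, 11.75 and 11.81 in wild type and 12.13, 12.03 and 12.12 in dKO in ethanol. Under DP the levels were 11.78, 11.73 and 11.75 against 12.03, 12.01 and 12.20. The groups did not overlap, and the differences were 0.37 ± 0.09 (adjusted p = 0.00587) and 0.33 ± 0.09 (adjusted p = 0.0124), the second with an adjusted p of 0.0601 without the DP array of dKO line 6. Lamp2, needed for fusion of autophagosomes with lysosomes, read 10.90, 10.80 and 10.39 against 11.36, 11.54 and 11.56 in ethanol. Its DP values were 10.80, 10.77 and 10.85 against 11.60, 11.56 and 11.73. Every dKO value of Lamp2 was above every wild-type value, by 0.79 ± 0.12 (adjusted p = 0.000284) and 0.83 ± 0.12 (adjusted p = 0.00019). A further Lamp2 probe set showed -0.04 in ethanol and 0.11 with DP. In wild type it read above the one used, at 10.84 against 10.70 in ethanol and 11.08 against 10.81 with DP. Over all 12 arrays the one used had the higher mean, 11.15 against 10.98. Another showed 0.67 in ethanol, and the mean of all 3 was 0.47 in ethanol and 0.53 with DP.

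Mcoln1, a cation channel of the lysosomal membrane, read 7.74, 7.65 and 7.75 in wild type and 8.98, 8.45 and 8.79 in dKO in ethanol. With DP the values were 7.64, 7.60 and 7.55 against 8.61, 8.56 and 8.66. It was close to 2-fold higher in dKO in each treatment without overlap, by 1.03 ± 0.12 (adjusted p = 2.09e-05) and 1.01 ± 0.12 (adjusted p = 2.34e-05). Cd68, a lysosomal glycoprotein best known from macrophages, read 4.66, 5.71 and 5.88 against 7.23, 6.50 and 7.11 in ethanol. In DP cultures it read 5.31, 5.28 and 5.36 against 6.71, 6.30 and 7.08. Cd68 was higher in dKO by 1.53 ± 0.29 (adjusted p = 0.00116) and 1.38 ± 0.29 (adjusted p = 0.00243), without overlap. Npc1, which exports cholesterol from lysosomes, read 7.69, 7.66 and 7.77 against 8.44, 7.73 and 8.21 in ethanol, and 7.76, 7.71 and 7.53 against 7.96, 7.83 and 8.00 with DP. In ethanol dKO line 5 lay within the wild-type range, and the difference of 0.42 ± 0.15 (adjusted p = 0.0455) was lost in 11 of 12 fits that left out an array (adjusted p from 0.0529 to 0.158). The DP difference was 0.27 ± 0.15 (adjusted p = 0.199).

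**Figure D2:**
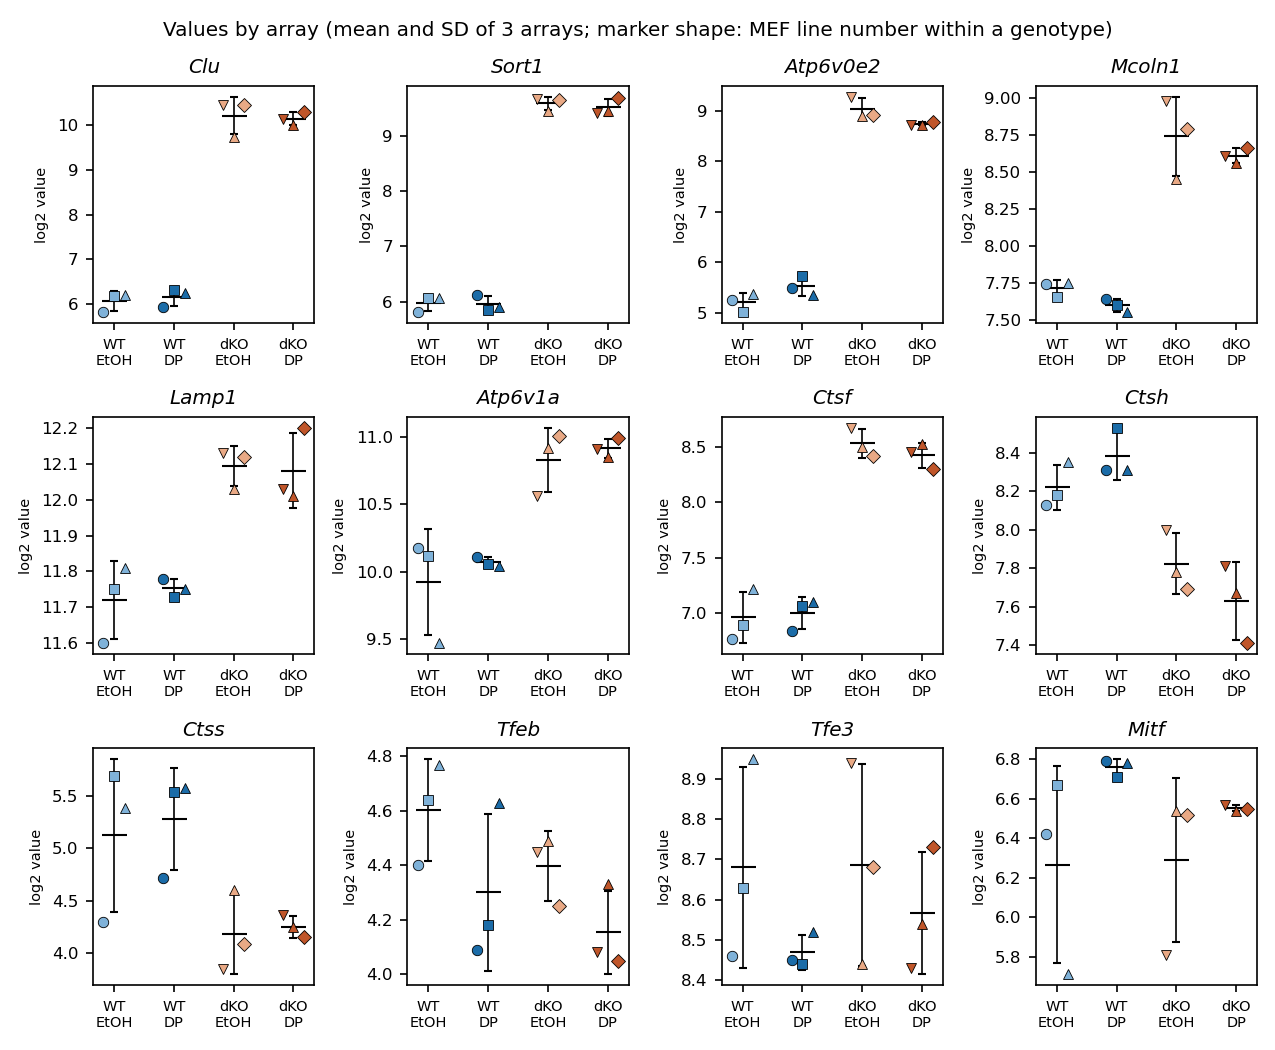
Log2 level (y axis, a separate range per gene that does not start at 0) of 12 genes on each array, by group on the x axis; marker shapes stand for line numbers within a genotype, horizontal bars for the mean of 3 arrays and whiskers for the SD. Clu, Sort1 and Atp6v0e2 show the widest separation, with every dKO array at or above 8.73 and every wild-type array at or below 6.31, while Tfeb and Tfe3 overlap between genotypes.

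The proteases were the mixed group, with 4 of 10 higher, 2 lower and 4 not called in each treatment. Over all genes 19.5% were higher and 14.1% lower in ethanol, and 18.5% and 16.9% with DP, so the 2 lower are near the share of all genes. Ctsf, a cysteine protease, read 6.77, 6.90 and 7.22 in wild type and 8.67, 8.50 and 8.42 in dKO in ethanol. The DP levels were 6.84, 7.07 and 7.10 against 8.45, 8.52 and 8.30. No dKO value came near the wild-type range, and Ctsf was 2.96-fold higher in ethanol (1.56 ± 0.13, adjusted p = 1.45e-06) and 2.68-fold higher with DP (1.42 ± 0.13, adjusted p = 2.81e-06). Averaged with a dim second probe set, the Ctsf differences were 0.76 and 0.68. Tpp1, which removes tripeptides from protein ends, read 10.87, 10.90 and 10.93 against 11.54, 11.58 and 11.70 in ethanol, and 10.84, 10.77 and 10.88 against 11.59, 11.44 and 11.61 with DP. Its genotype differences were 0.70 ± 0.09 (adjusted p = 3.77e-05) and 0.72 ± 0.09 (adjusted p = 2.98e-05), and the values of each genotype lay close together. Ctsa, the carboxypeptidase that also protects other hydrolases, read 10.15, 10.26 and 10.49 against 10.96, 10.80 and 10.95 in ethanol. After DP it read 10.28, 10.33 and 10.35 against 10.80, 10.92 and 10.88. Ctsa differed by 0.60 ± 0.10 (adjusted p = 0.000407) and 0.55 ± 0.10 (adjusted p = 0.000855) without overlap. Ctsk, a collagen-degrading cathepsin, read 9.42, 9.40 and 9.39 against 9.84, 9.69 and 9.69 in ethanol, and 9.28, 9.35 and 9.27 against 9.69, 9.50 and 9.68 with DP. The smaller Ctsk differences were 0.33 ± 0.09 (adjusted p = 0.01) and 0.32 ± 0.09 (adjusted p = 0.0115).

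Ctsh, an aminopeptidase, ran the other way, at 8.13, 8.18 and 8.35 in wild type and 8.00, 7.78 and 7.69 in dKO in ethanol. With DP it read 8.31, 8.53 and 8.31 against 7.81, 7.67 and 7.41. The groups did not overlap, and Ctsh fell by 0.40 ± 0.12 (adjusted p = 0.027) in ethanol and by 0.75 ± 0.12 (adjusted p = 0.000404) with DP. The ethanol call was lost in 4 of 12 fits that left out an array, wild-type line 4 or 5 or dKO line 5 or 6 in ethanol (adjusted p from 0.05 to 0.112). Ctss, a cathepsin of antigen-presenting cells, read 4.30, 5.69 and 5.39 against 3.85, 4.60 and 4.09 in ethanol. Its DP values were 4.72, 5.54 and 5.58 against 4.36, 4.25 and 4.15. Wild-type line 3 was the lowest wild-type array in both treatments, and in ethanol it lay within the dKO range. Ctss fell by 0.95 ± 0.32 (adjusted p = 0.0387) and by 1.03 ± 0.32 (adjusted p = 0.0254), calls lost in 7 and 4 of 12 fits that left out an array (adjusted p up to 0.161 without wild-type line 4 in ethanol and 0.101 without wild-type line 5 with DP). The other 4 proteases, all cathepsins, were not called in either treatment. Ctsl, a cysteine protease, differed by 0.18 ± 0.08 in ethanol (adjusted p = 0.103) and Ctsd, the aspartic protease, by -0.16 ± 0.12 (adjusted p = 0.329). Ctsl ranged from 12.08 to 12.21 over the wild-type arrays and from 12.27 to 12.36 over the dKO arrays, whereas Ctsd ranged from 10.91 to 11.17 and from 10.67 to 11.06. The Ctsl groups did not overlap, and cyclic loess, an intensity trend or array weights each gave a call in ethanol (adjusted p from 0.0135 to 0.0478) and with DP (0.0103 to 0.0487). Ctsb differed by -0.22 ± 0.10 in ethanol (adjusted p = 0.124) and -0.25 ± 0.10 with DP (adjusted p = 0.0704), without overlap. All 4 Ctsb probe sets read lower in dKO, and their mean was called in both treatments, at -0.33 (adjusted p = 0.00882) and -0.40 (adjusted p = 0.0027). Ctsz differed by 0.21 ± 0.09 in ethanol (adjusted p = 0.0963) and 0.24 ± 0.09 with DP (adjusted p = 0.057), also without overlap.

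Macrophage markers bear on Ctss and Cd68, since MEF cultures can hold embryonic macrophages. Of 15 measured macrophage markers 9 averaged under 4 log2, and 7 were lower and 1 (Cd14) higher in dKO in ethanol. With DP 8 were lower and 1 higher. Their mean per array was 3.86 to 4.53 in wild type, with line 3 lowest at 3.86 in both treatments, and 3.45 to 3.73 in dKO. Lyz2, the macrophage lysozyme, ranged from 6.77 to 8.88 in wild type and from 3.41 to 5.14 in dKO. The complement gene C1qa, one of the list's defining markers, read 3.63 and 3.66 in wild-type line 3, 5.18 to 5.78 in wild-type lines 4 and 5, and 2.94 to 3.67 in dKO. Ctss thus moved in the same direction as this list and Cd68 in the opposite one. Lower calls were not particular to macrophage markers. In ethanol 12 of 12 fibroblast, 4 of 5 epithelial, 3 of 4 adipocyte, 2 of 4 skeletal muscle and 1 of 5 neural markers were lower in dKO. Of 5 endothelial and 5 osteoclast markers 0 were lower, beside 14.1% of all genes. The part of macrophages in the Ctss and Cd68 results was not tested, and fewer cells of a type and less RNA per cell cannot be told apart in such samples.

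Among the glycosidases 4 of 5 were higher in dKO in each treatment, beside 19.5% of all genes in ethanol and 18.5% with DP. Gla, the X-linked alpha-galactosidase, read 8.17, 8.15 and 8.47 in wild type and 9.44, 8.94 and 9.39 in dKO in ethanol. On the DP arrays it read 8.19, 8.15 and 8.22 against 9.15, 8.88 and 9.14. Its differences, without overlap, were 0.99 ± 0.14 (adjusted p = 0.000113) and 0.87 ± 0.14 (adjusted p = 0.000309), but a dimmer Gla probe set showed 1.12 in ethanol and -0.14 with DP, and the mean of both gave 0.365 with DP (adjusted p = 0.151). Gaa, which degrades glycogen, read 8.98, 9.05 and 9.38 against 9.95, 9.68 and 9.91 in ethanol, and 8.97, 8.87 and 8.96 against 9.67, 9.73 and 9.99 with DP. It was higher by 0.71 ± 0.13 (adjusted p = 0.000718) and 0.86 ± 0.13 (adjusted p = 0.000152). Gusb, the beta-glucuronidase, read 8.96, 8.97 and 9.25 against 9.94, 9.50 and 9.60 in ethanol. In DP cultures it read 9.14, 9.01 and 8.80 against 9.44, 9.50 and 9.35. Gusb differed by 0.62 ± 0.13 (adjusted p = 0.00268) and 0.45 ± 0.13 (adjusted p = 0.0185), the second lost in 3 fits, those without the DP array of wild-type line 5 or dKO line 1 or 5 (adjusted p from 0.0506 to 0.0868). Hexa, a beta-hexosaminidase subunit, read 10.62, 10.71 and 10.93 against 11.30, 11.14 and 11.14 in ethanol, and 10.60, 10.51 and 10.59 against 11.06, 11.08 and 11.06 with DP. The differences in Hexa were 0.44 ± 0.10 (adjusted p = 0.00295) and 0.50 ± 0.10 (adjusted p = 0.00118). Glb1, the beta-galactosidase used as a marker of senescence, was not called, at 0.18 ± 0.14 (adjusted p = 0.358) and 0.02 ± 0.14 (adjusted p = 0.943).

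Of the enzymes acting on lipids and acyl groups, Ppt1 and Asah1 were higher and Lipa was not called. Ppt1, which strips palmitate from proteins, read 7.88, 7.91 and 8.19 in wild type and 9.38, 9.16 and 9.34 in dKO in ethanol. Under DP the levels were 8.17, 8.15 and 8.11 against 9.19, 9.20 and 9.23. Ppt1 was 2.46-fold higher in ethanol (1.30 ± 0.10, adjusted p = 9.32e-07) and 2.09-fold higher with DP (1.06 ± 0.10, adjusted p = 3.96e-06), where the mean of its probe sets gave 0.68. Asah1, the acid ceramidase, read 10.53, 10.45 and 10.03 against 10.58, 11.10 and 11.09 in ethanol. After DP it read 10.47, 10.41 and 10.46 against 11.03, 11.11 and 11.12. The ethanol array of dKO line 1 stood just above the highest wild-type array, and the differences were 0.59 ± 0.15 (adjusted p = 0.00896) and 0.64 ± 0.15 (adjusted p = 0.00512). Lipa, the acid lipase, differed by 0.22 ± 0.09 in each treatment (adjusted p = 0.0928 and 0.0858).

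The soluble lipid-binding proteins showed small differences. Npc2, which hands cholesterol to NPC1, read 11.83, 11.83 and 12.11 in wild type and 12.33, 12.08 and 12.20 in dKO in ethanol. The DP levels were 11.72, 11.68 and 11.81 against 11.97, 12.08 and 12.23. The groups overlapped in ethanol (0.28 ± 0.11, adjusted p = 0.0688, and 0.00628 for the mean of its probe sets) and not with DP (0.36 ± 0.11, adjusted p = 0.0223), and the DP call was lost in 4 fits without a DP array, of wild-type line 3 or 4 or dKO line 5 or 6 (adjusted p from 0.0523 to 0.0959). Psap, the precursor of the saposins, read 10.90, 10.79 and 10.98 against 11.19, 11.05 and 11.15 in ethanol, and 10.83, 10.77 and 10.85 against 11.06, 11.08 and 11.04 with DP. Its differences of 0.24 ± 0.08 (adjusted p = 0.0435) and 0.25 ± 0.08 (adjusted p = 0.0393) were lost in 10 and 7 of 12 fits that left out an array (adjusted p from 0.0559 to 0.154, and from 0.0547 to 0.123).

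All 11 V-ATPase genes measured from the list were higher in dKO in both treatments, beside 19.5% of all genes in ethanol and 18.5% with DP. Atp6v1c1, also listed, was not analysed. These were 5 genes of the V0 sector with the accessory subunit Atp6ap1, and 5 of the V1 sector. Atp6v0e2, an isoform of the small e subunit, read 5.26, 5.01 and 5.37 in wild type and 9.28, 8.90 and 8.91 in dKO in ethanol. With DP it read 5.50, 5.72 and 5.35 against 8.73, 8.73 and 8.78. The lowest dKO array lay 3.00 log2 above the highest wild-type array, and Atp6v0e2 was 14.1-fold higher in ethanol (3.81 ± 0.14, adjusted p = 3.04e-09) and 9.34-fold higher with DP (3.22 ± 0.14, adjusted p = 8.44e-09). Its paralog Atp6v0e read 11.18, 11.12 and 11.29 against 11.71, 11.56 and 11.51 in ethanol. The DP values of Atp6v0e were 11.03, 11.01 and 11.02 against 11.50, 11.50 and 11.61. Atp6v0e was higher by 0.40 ± 0.09 (adjusted p = 0.00358) and 0.52 ± 0.09 (adjusted p = 0.000484), a far smaller difference than that of Atp6v0e2.

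Atp6v0b, a proton-carrying proteolipid, read 9.39, 9.34 and 9.82 in wild type and 11.01, 10.55 and 10.80 in dKO in ethanol. On the DP arrays it read 9.58, 9.37 and 9.47 against 10.68, 10.54 and 11.02. Atp6v0b was 2.41-fold higher in each treatment, by 1.27 ± 0.16 (adjusted p = 5.33e-05 and 5.01e-05). Atp6v0a1, the large membrane subunit, read 6.71, 6.69 and 6.89 against 7.55, 7.30 and 7.61 in ethanol, and 6.77, 6.46 and 6.59 against 7.35, 7.19 and 7.69 with DP. The differences of 0.72 ± 0.14 (adjusted p = 0.00121) and 0.80 ± 0.14 (adjusted p = 0.000544) rest on 1 probe set, since the mean of the gene's 4 probe sets, the others being dimmer, gave an adjusted p of 0.246 in ethanol and 0.487 with DP. Atp6v0d1, which joins the sectors, read 10.71, 10.82 and 11.00 against 11.52, 11.19 and 11.45 in ethanol. Its DP values were 10.72, 10.86 and 10.79 against 11.19, 11.18 and 11.31. Atp6v0d1 differed by 0.54 ± 0.11 (adjusted p = 0.00178) and 0.44 ± 0.11 (adjusted p = 0.00714). Atp6ap1 read 10.48, 10.41 and 10.56 against 11.34, 11.16 and 11.25 in ethanol, and 10.50, 10.41 and 10.42 against 11.13, 11.13 and 11.24 with DP. This X-linked gene was higher by 0.76 ± 0.09 (adjusted p = 1.99e-05) and 0.72 ± 0.09 (adjusted p = 2.97e-05).

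The V1 genes moved within a narrow range, by 0.61 to 1.09 in ethanol and 0.68 to 1.105 with DP. Atp6v1a, the catalytic subunit, read 10.18, 10.12 and 9.47 in wild type and 10.56, 10.92 and 11.01 in dKO in ethanol. Under DP the levels were 10.11, 10.06 and 10.04 against 10.91, 10.85 and 10.99. Wild-type line 5 and dKO line 1 gave the lowest ethanol values of their groups, and the differences were 0.91 ± 0.17 (adjusted p = 0.000947) and 0.85 ± 0.17 (adjusted p = 0.00154). Atp6v1b2, the other nucleotide-binding subunit, read 8.47, 8.63 and 8.67 against 9.72, 9.34 and 9.66 in ethanol. In DP cultures it read 8.33, 8.16 and 8.33 against 9.29, 9.25 and 9.47. Atp6v1b2 was higher by 0.98 ± 0.12 (adjusted p = 2.87e-05) and 1.06 ± 0.12 (adjusted p = 1.46e-05). Atp6v1e1, of the stator stalk, read 9.94, 9.97 and 10.08 against 11.21, 10.88 and 11.17 in ethanol. With DP its levels were 9.88, 9.89 and 9.86 against 11.02, 10.90 and 11.01. Atp6v1e1 was 2.13-fold higher in ethanol (1.09 ± 0.10, adjusted p = 3.3e-06) and 2.15-fold higher with DP (adjusted p = 2.76e-06). Averaged with 3 dim probe sets, its differences were 0.53 and 0.58, still called. Atp6v1d, of the central rotor, read 10.41, 10.43 and 10.32 against 11.00, 10.96 and 11.04 in ethanol, and 10.27, 10.35 and 10.38 against 10.94, 10.97 and 11.13 with DP. It differed by 0.61 ± 0.09 (adjusted p = 0.000111) and 0.68 ± 0.09 (adjusted p = 4.33e-05). Atp6v1h, a regulatory subunit, read 9.25, 9.37 and 8.85 against 9.93, 10.02 and 10.19 in ethanol, and 9.43, 9.43 and 9.30 against 10.14, 10.10 and 10.11 with DP. Its differences were 0.89 ± 0.13 (adjusted p = 0.000115) and 0.73 ± 0.13 (adjusted p = 0.00052).

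**Figure D3:**
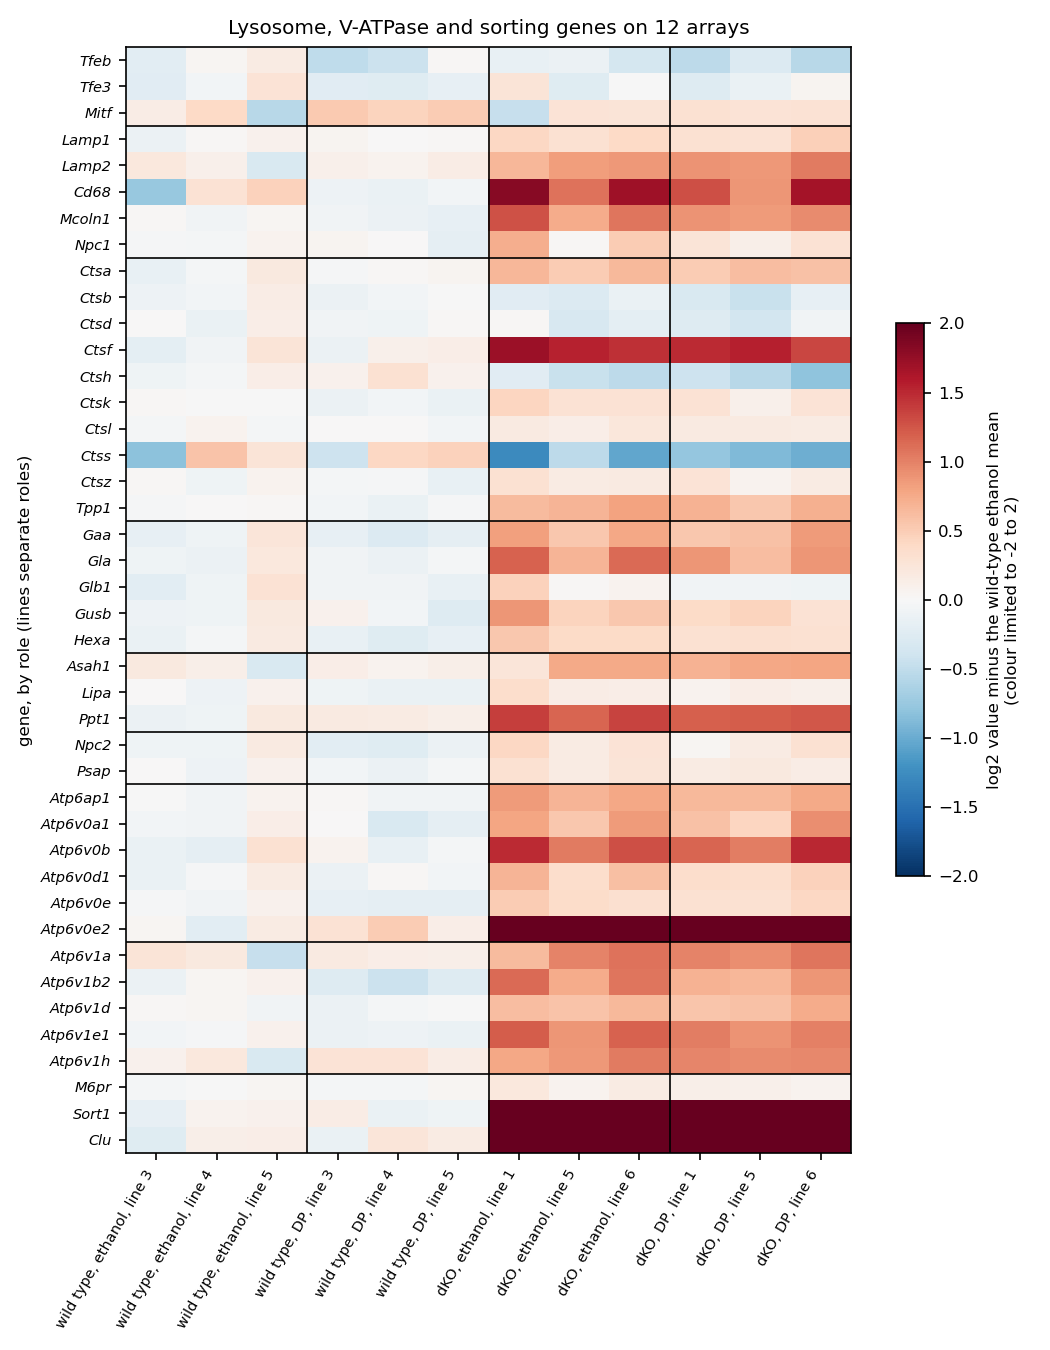
Log2 level of each of the 42 genes (rows, by role) on each of the 12 arrays (columns, by group), as the difference from the wild-type ethanol mean, with red above and blue below and the colour limited to -2 to 2. Most rows turn red from the wild-type to the dKO columns, the rows of Ctss and Ctsh turn blue, and within a genotype the ethanol and DP columns look alike.

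The largest differences were those of the secreted chaperone and the sorting receptor. Clu (clusterin), which binds misfolded proteins outside the cell, read 5.82, 6.19 and 6.20 in wild type and 10.46, 9.73 and 10.46 in dKO in ethanol. The DP levels were 5.93, 6.31 and 6.24 against 10.14, 10.00 and 10.29. The lowest dKO array lay 3.42 log2 above the highest wild-type array, and Clu was 17.7-fold higher in ethanol (4.15 ± 0.19, adjusted p = 1.74e-08) and 15.8-fold higher with DP (3.98 ± 0.19, adjusted p = 2.95e-08). The other Clu probe sets differed by 4.48 and 4.25 in ethanol. Sort1 (sortilin), which carries cargo from the Golgi to lysosomes, read 5.82, 6.06 and 6.07 against 9.66, 9.45 and 9.64 in ethanol. After DP it read 6.13, 5.85 and 5.90 against 9.40, 9.45 and 9.68. The gap between genotypes was 3.27 log2, and Sort1 was 12.1-fold higher in ethanol (3.60 ± 0.12, adjusted p = 2.37e-09) and 11.7-fold higher with DP (3.55 ± 0.12, adjusted p = 3.1e-09). Further Sort1 probe sets gave smaller differences of 2.36 and 2.34 in ethanol. M6pr, the small receptor for mannose phosphate tags on hydrolases, ranged from 10.08 to 10.17 over the wild-type arrays and from 10.20 to 10.34 over the dKO arrays. Its difference of 0.15 ± 0.08 in ethanol was not called (adjusted p = 0.178).

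Over the whole list, 23 genes had more than 1 probe set. Of 27 further probe sets of genes called in ethanol, 23 differed in the direction of the one used, and the exceptions included Atp6v0a1, Lamp2 and a Ctsf probe set with a mean of 3.12, within the range of the control probe sets.

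Promoter sequences are shown because a part of these genes holds the palindrome read by TFEB and its relatives. Whether it bears on the genotype differences was not tested. RefSeq promoter windows (GRCm38.p6, 250 bases before to 50 after a transcript start) were held for 33 of the 42 genes. The palindrome CACGTG, the core of the element that TFEB and its relatives bind and also of the E-box read by many other factors, occurred in 13 of 33 genes (39.4%), beside 10.2% of the 13605 measured genes with a promoter. The longer TCACGTG, which contains it and was searched on both strands, occurred in 33.3% against 5.78%. The shorter ACGTG, the core of the hypoxia response element, which lies within CACGTG, occurred in 45.5% against 26.1%. CACGTG stood in 10 of the 23 genes higher in dKO in ethanol (43.5%) and in 3 of the other 10 (30%). The other 10 include Tfeb, Tfe3 and Mitf themselves, whose windows hold no copy. The shares of the higher and the other genes are therefore not like for like, and no link to direction follows from them. The windows below are the 100 bases before the start, 5' to 3' on the gene's strand, with CACGTG in capitals. Lamp1, Mcoln1 and Atp6v0b hold more than 1 copy, Ctsf holds 1, and Atp6v0e2, Ppt1 and Tpp1 hold none. All 7 genes were higher in dKO, and the selection shows windows with and without the letters rather than their share.
Lamp1, chr8:13159061-13159160, plus strand: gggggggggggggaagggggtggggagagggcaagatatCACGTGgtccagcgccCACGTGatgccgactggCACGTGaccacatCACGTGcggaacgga
Mcoln1, chr8:3500419-3500518, plus strand: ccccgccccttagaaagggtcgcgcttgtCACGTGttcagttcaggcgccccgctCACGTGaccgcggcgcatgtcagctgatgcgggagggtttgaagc
Atp6v0b, chr4:117887330-117887429, minus strand: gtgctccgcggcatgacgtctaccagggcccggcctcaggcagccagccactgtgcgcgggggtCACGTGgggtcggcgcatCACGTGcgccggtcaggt
Ctsf, chr19:4855065-4855164, plus strand: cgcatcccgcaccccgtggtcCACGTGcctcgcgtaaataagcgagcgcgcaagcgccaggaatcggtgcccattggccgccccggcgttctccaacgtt
Atp6v0e2, chr6:48537469-48537568, plus strand: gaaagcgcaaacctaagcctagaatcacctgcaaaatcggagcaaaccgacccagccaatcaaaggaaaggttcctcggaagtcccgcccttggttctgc
Ppt1, chr4:122836127-122836226, plus strand: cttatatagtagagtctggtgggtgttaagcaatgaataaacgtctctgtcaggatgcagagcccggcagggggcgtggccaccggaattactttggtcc
Tpp1, chr7:105752236-105752335, minus strand: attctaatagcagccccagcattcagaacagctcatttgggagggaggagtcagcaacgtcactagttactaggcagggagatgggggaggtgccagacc
In Lamp1 the copies begin at -61, -45, -28 and -15 relative to the start, and in Mcoln1 at -71 and -45. In Atp6v0b they begin at -36 and -18. A match is a description of the letters and not of binding, and nothing follows from a window without one.

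Other lysosome genes, from a list of 96 textbook genes outside the 42, were measured for 78. In ethanol 39 of the 78 were higher in dKO and 8 lower, with a median of 0.35. With DP 38 were higher and 6 lower, with a median of 0.33. These counts stand beside 19.5% of all genes higher and 14.1% lower in ethanol, and 18.5% and 16.9% with DP. Rragd, a GTPase that signals amino acid supply at the lysosome, showed the widest difference, with means of 4.32 ± 0.36 and 7.48 ± 0.26 (SD, n = 3) in ethanol, a rise of 3.16 ± 0.17 (adjusted p = 6.93e-08). With DP it rose by 2.80. Cln3, a lysosomal membrane protein lost in a childhood neurodegeneration, was higher by 2.17 ± 0.14 in ethanol and 1.94 with DP. Cst6, a secreted cathepsin inhibitor, was higher by 1.56 and 1.78, and Mfsd8, a lysosomal transporter, by 1.53 and 1.12. Ostm1, a partner of the lysosomal chloride transporter, was higher by 1.46 in ethanol and 1.505 with DP. Ctsw, a cathepsin of cytotoxic lymphocytes named after its values were seen, fell by 1.47 ± 0.16 in ethanol and by 1.25 with DP, the widest fall of the list in each. Of 10 further V-ATPase genes 5 were higher in each treatment and none was lower. The 5 not called had group means of 2.82 to 3.63, a level at which control probe sets also read. A difference in these 5 could therefore not be judged. Atp6v1g2, named after its values were seen, was among those higher but also dim, at 3.32 in wild type and 3.99 in dKO in ethanol.

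Treatment with DP for 3 h gave no called difference in any of the 42 genes in either genotype. In wild type, 0 of 42 were called by limma, beside 4.73% of all genes called. At an unadjusted limma p under 0.05, 3 of the 42 passed, beside 2596 of all 17097 genes. The differences, DP minus ethanol, ran from -0.32 ± 0.12 for Atp6v1b2 (adjusted p = 0.199, the smallest of the list) to 0.50 ± 0.22 for Mitf (adjusted p = 0.319), with a median of -0.06 beside -0.03 for all genes. In dKO, 0 of 42 were called, beside 1.5% of all genes called, and 0 passed an unadjusted p of 0.05, beside 2409 of all 17097 genes. There the range ran from -0.28 ± 0.14 for Atp6v0e2 (adjusted p = 0.367) to 0.26 ± 0.22 for Mitf (adjusted p = 0.619), with a median of -0.08 beside -0.05. Standard errors of 0.08 to 0.32 over the list set the size of response that could be seen. Among the other lysosome genes, 0 of 78 were called in either genotype, with 6 at an unadjusted p under 0.05 in wild type and 5 in dKO. Rragd differed by 0.61 ± 0.17 in wild type (adjusted p = 0.0736).

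The response to DP was also not called as different between genotypes for any of the 42 genes. limma called 0, beside 0.562% of all genes called. Beside 1012 of all 17097 genes, 1 of the 42 passed an unadjusted p under 0.05. That gene was Atp6v0e2, with 0.31 ± 0.14 in wild type and -0.28 ± 0.14 in dKO, a difference of -0.59 ± 0.19 (adjusted p = 0.459). Its wild-type lines 3 and 4 read higher with DP and line 5 did not, while all 3 dKO lines read lower. These comparisons share arrays with the genotype comparisons above, so their values are not independent of them.

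**Figure D4:**
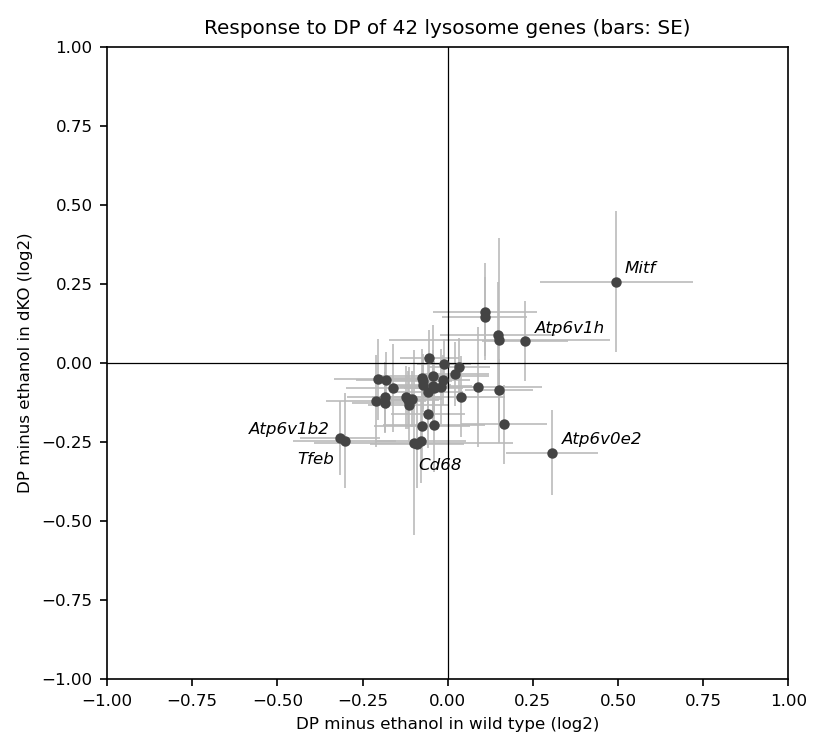
DP minus ethanol (log2) in wild type (x axis) and in dKO (y axis) for each of the 42 genes; points are differences of 3 against 3 arrays and bars are limma standard errors. All points lie between -0.32 and 0.50, and Mitf and Atp6v0e2 stand farthest from the centre without being called.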

How the data were processed

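RNA of 12 MEF cultures was measured on Affymetrix arrays. The deposited values are log2 probe set levels that the authors summarised by RMA. The submitters' processing notes name Affymetrix Expression Console 1.1 for it. RMA sets all arrays to 1 distribution, so a shift shared by all genes would not be seen, and 3 arrays a group limit the precision. Of 45141 probe sets, 104 were controls, 28898 had 1 gene symbol (28689 updated by gene ID), 551 several and 15588 none; 17097 genes remained, 7180 with more than 1 probe set.

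The tests used limma 3.58.1 (lmFit, eBayes) in R 4.3.3, with 1 mean per group over all 12 arrays, 5 contrasts and Benjamini-Hochberg adjustment over all genes of a contrast, and were tested on simulated data. Tables and figures used Python 3.11.15, pandas 2.3.3, numpy 2.4.6 and matplotlib 3.10.9. The labels give the ethanol and DP cultures of a genotype the same MEF numbers, which name 1 line. The check used 8917 genes whose mean reached 5. The deviations of a line's arrays from their group means correlated at 0.425, 0.056 and 0.326 (wild-type lines 3, 4 and 5) and 0.044, 0.322 and 0.363 (dKO lines 1, 5 and 6). The line was therefore also fitted as a replicate block, fixed for DP and random between genotypes.

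Named were each listed gene called in a contrast, a fixed set (Lamp1, Ctsd, Ctsl, Clu, Atp6v0d1, Atp6v1a, Npc1, Mcoln1, M6pr, Tfeb, Tfe3, Mitf), the genes of highest and lowest mean, the other members where their role is described, and up to 4 other lysosome genes of largest change per contrast. Members and lists, marker lists included, were chosen with earlier results of these data known. Alternatives were the replicate block, scaling by cyclic loess or by the median, a filter that drops the 40% dimmest genes, averaging a gene's probe sets, an intensity trend, array weights, a fit of only the arrays compared, and each array left out.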

Additional observations from a re-analysis of the deposited data

How the results depend on the processing

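Over 21 alternatives, 26 to 35 of the 42 genes were called between genotypes in ethanol and 27 to 35 with DP. The calls over all genes fitted moved as well, from 4396 to 8070 in ethanol and from 4999 to 7854 with DP. In ethanol the lowest counts, on the list and over all genes, came from the same fit, and so did the highest. With each array left out in turn, the counts were 27 to 30 and 27 to 32. With a replicate block for the line, 31 were called in each genotype comparison and 0 for DP or for the difference between genotypes, and it changed no call. For DP the fit was paired by line, while between genotypes, which share no line, the block was random, with a correlation of 0.0951. In each genotype comparison, 24 of the 31 calls were kept under every alternative. Lost under some were Asah1, Atp6v0a1, Ctsh, Ctsk, Ctss, Npc1 and Psap in ethanol and Atp6v0a1, Ctss, Gla, Gusb, Lamp1, Npc2 and Psap with DP. In ethanol the lowest count, 26 with 0 lower, came from the fit of only the arrays compared. Array weights called 1 of the 42 genes, Atp6v0e2, for DP in wild type (0.42), and the cause was not tested. Leaving out ethanol arrays 5 of wild type and 1 of dKO, a choice made after seeing the data, gave 30 calls in ethanol, 1 of them lower, and 35 with DP. Calls gained under some alternatives were those of Ctsb, Ctsl, Ctsz, Lipa and Npc2 in ethanol and of Ctsb, Ctsl, Ctsz, Lipa, Mitf and Npc1 with DP.

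A change of sign was looked for in called genes and in the fixed set named above, and reversals there were limited to genes not called. The remaining genes not called were not checked for it. In ethanol the Tfe3 difference became -0.137 with cyclic loess and -0.12 with an array left out. That of Mitf became -0.173, -0.247 and, without the deviating pair of arrays, -0.008. With the mean of probe sets, M6pr became -0.019 in ethanol and -0.039 with DP, and Mitf 0.023 with DP. With DP, Tfe3 became -0.03 with cyclic loess, and Tfeb 0.018 with an array left out. The cause of these was not tested. Signal over background limits Tfeb and Ctss, whose levels lie near the control probe sets.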

Other observations

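Of the 42 genes, 4 are X-linked (Tfe3, Lamp2, Atp6ap1 and Gla), and 3 of these were higher in dKO in each treatment. Of the 597 measured X-linked genes, 19.8% were called higher in ethanol and 20.6% with DP. Of the 38 autosomal genes on the list, 26 were higher in each treatment, beside 19.5% of all autosomal genes in ethanol and 18.5% with DP. Wild-type and dKO arrays differ in sex-linked RNA, and its part in these counts was not tested.

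Acp5, the tartrate-resistant acid phosphatase of lysosomes and a marker of osteoclasts, averaged 5.67 in wild type and 6.48 in dKO in ethanol, a rise of 0.81 (limma adjusted p = 0.000383). Of 5 measured osteoclast markers 4 averaged under 4 log2. Higher in dKO in each treatment were 2, Acp5 itself and Oscar, beside 19.5% of all genes in ethanol and 18.5% with DP. Oscar read 3.52 in wild type and 3.92 in dKO in ethanol, a level at which control probe sets also read. Calcr (-0.18), Ocstamp (0.07) and Atp6v0d2 (-0.14 in ethanol) were not called.

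CACGTG occurred in the promoter window of 15 of 65 other lysosome genes (23.1%), between the share of the 33 listed genes (39.4%) and that of all measured genes (10.2%).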
